A study of Mus musculus with 2 samples.

Results

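The gelsolin family holds actin-binding proteins built from repeats of 1 shared domain, and 6 of its members were read here: SCIN, GSN, CAPG, VIL1, FLII and SVIL, written as the array names them. Each had 1 row among the 31492 array genes of the deposited table. SCIN (scinderin, also called adseverin) was chosen by its large measured rise with RANKL in these same arrays, so its values are given as a description with no test. The other 5 were taken as its relatives and not for their values. The label of the group as severing proteins holds only in part, since CAPG caps filament ends without cutting filaments and SVIL (supervillin) mainly binds filaments and myosin at membranes.

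The cells were osteoclast precursors from bone marrow of C57BL/6 mice aged 8 weeks, sorted by flow cytometry as CD3-, CD45R-, CD11b low or negative, and CD115+, where CD115 is the receptor of macrophage colony-stimulating factor (M-CSF). One culture group received M-CSF alone at 30 ng/ml, and the other M-CSF with RANKL, the cytokine that starts osteoclast formation, both at 30 ng/ml. Adherent cells were taken for RNA after 3 days, and M-CSF was common to both groups. Each group is the mean of 3 biological replicates on separate Illumina bead arrays, with the SD between arrays. Single arrays were not used here, and the number of arrays limits the precision. The labels call the replicates biological, but nothing in them says whether they came from separate mice. The p-values therefore measure only the spread between these replicates, which may not be that between mice.

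Gelsolin-like proteins bind actin under the control of calcium and of membrane phosphoinositides. Severing breaks a filament, and the protein then caps the new fast-growing end until phosphoinositides release it, so that filaments turn over quickly. Osteoclasts attach to bone through podosomes, short-lived columns of actin that assemble into a ring around the resorbed area. In mice, loss of gelsolin leaves osteoclasts short of podosomes, and in cultured osteoclast precursors knockdown of scinderin impairs osteoclast formation.

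All values below are normalized intensities on a linear scale, given as the authors' mean ± SD (n = 3). A fold is the ratio of the mean with RANKL to the mean in M-CSF alone. Signal at background lay near 141 in both groups, the median over array genes whose detection p was 0.1 or higher in each culture, which makes the folds of dim genes too small. For most array genes the detection p is a whole multiple of 1 in 936, and the lowest signals detected at such a p served as floors, at 198 in M-CSF alone and 196 with RANKL. A few array genes with other detection p-values were called detected below them. A limma moderated test was run on the 11012 array genes whose detection p fell under 0.01 in 1 group or both. Because a probe's brightness depends on its own sequence, expression is compared only between cultures for 1 gene. Signals set beside those of other genes describe probe brightness only. The arrays read whole cultures, so more cells carrying a transcript and more transcript per cell cannot be told apart.

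The sorted identity could be set against fixed markers. With M-CSF alone all 10 monocyte and macrophage markers were detected, and with RANKL 9 were. Of the 10 osteoclast markers 4 were detected in M-CSF alone and 8 with RANKL, while Calcr and Atp6v0d2 were detected in neither. The 8 detected with RANKL, among them Mmp9, Ctsk, Dcstamp and Acp5, all passed as higher, beside 28.9% of all tested array genes. Oscar, Ocstamp, Acp5 and Itgb3 entered the test through their RANKL signal alone, so they had to differ to be tested. Summed over all 10 markers, signal was 2168 in M-CSF alone and 158164 with RANKL, of which Ctsk (67578) and Mmp9 (56537) gave the most. Of the macrophage markers 9 fell, including Csf1r (18261 ± 1386 to 12688 ± 1294) and Adgre1 (14450 to 2365), whereas Cd68 (35480 to 33656) did not pass. Over all tested array genes 29% were called lower. C1qa, among the 9, was not detected with RANKL (4857 to 192) and entered the test only through its signal in M-CSF alone. Platelets also contain scinderin and gelsolin. Of 8 platelet and megakaryocyte markers only Pf4, which macrophages also express, and Ppbp were detected in M-CSF alone, and both fell. Ppbp (233 and 145) entered the test only through its signal in M-CSF alone, so it had to differ to be tested. The other 6 lay between 125 and 189 in M-CSF alone and between 128 and 181 with RANKL, while SCIN rose from 232 to 21484. None of 8 stromal markers was detected in either group. Of 9 T and B cell markers Cd79b was detected in both cultures, although the sort was CD3- and CD45R-, and it fell from 286 ± 7.64 to 205 ± 21.3 (adjusted p = 0.00102 in limma). The other 8 were not detected, and the summed signal of the 9 was 1794 and 1668. Of that sum 477 and 446 came from Ptprc, which is not confined to T and B cells. Its signals lay above the floors, with detection p-values of 0.0254 and 0.0617. The part of culture composition in the results below was not tested.

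**Figure D1:**
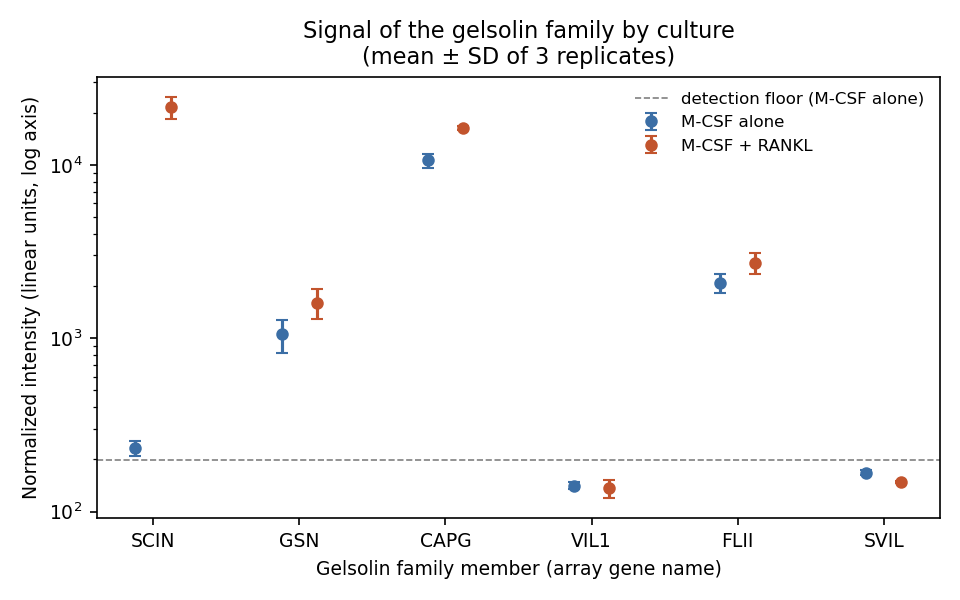
Normalized intensity (log axis) of the 6 gelsolin family members with M-CSF alone (blue) and with M-CSF and RANKL (orange). Points are means and bars the SD of 3 replicates. The dashed line is the detection floor in M-CSF alone, 198. The SCIN signals lie farthest apart, while VIL1 and SVIL stay under the floor in both cultures. Heights are comparable between cultures of 1 gene, not between genes.

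Scinderin went from the edge of detection to a bright signal. SCIN read 232 ± 22.7 in M-CSF alone and 21484 ± 3139 with RANKL. With M-CSF alone its mean was 1.17 times the floor and 90.9 units above background, and its detection p was 0.00107. With RANKL its mean was 30.4% as high as the brightest array gene, so the probe was well within the range of the array. The ranges of 1 SD around the means were 209 to 254 and 18345 to 24623. The ratio of the means was 92.7-fold (log2 6.53 ± 0.12 SE), and 5 of 31492 array genes had a larger one. Named after their values were seen, these were Mmp9, Ctsk, Slc9b2 (C80638 on the array), F2r and Mt3. Since the M-CSF signal is mostly background, subtraction of the background signal moved the fold to 235 (log2 7.88), so that its exact size rests on how background is treated.

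The stretch of DNA just before the transcription start is shown for SCIN and CAPG, the members with the largest ratios, because letters bound by factors of osteoclast formation can be read there. Both sequences are the 250 bases before a RefSeq start, from assembly GRCm38.p6, 5′ to 3′ on the gene's strand. They lie at chr12:40134229-40134478 (minus strand) for SCIN and chr6:72549397-72549646 (plus strand) for CAPG. Capitals mark matches to 4 searched motifs.
SCIN: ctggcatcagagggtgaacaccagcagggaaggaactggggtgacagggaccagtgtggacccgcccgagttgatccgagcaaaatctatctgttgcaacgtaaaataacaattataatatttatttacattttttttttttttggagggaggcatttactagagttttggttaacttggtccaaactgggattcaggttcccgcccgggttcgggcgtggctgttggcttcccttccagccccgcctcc
CAPG: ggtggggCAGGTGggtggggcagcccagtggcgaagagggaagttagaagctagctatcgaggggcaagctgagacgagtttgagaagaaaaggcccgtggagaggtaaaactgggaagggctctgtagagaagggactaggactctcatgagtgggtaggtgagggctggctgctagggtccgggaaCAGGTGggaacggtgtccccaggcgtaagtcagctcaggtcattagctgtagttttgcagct

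The motifs were the core GGAAA of NFAT factors, the AP-1 element TGANTCA, the E-box CANGTG, and GAGGAA as a core for PU.1. Each was searched on both strands. Forms of the E-box differ in the factors that bind them, so a match to CANGTG does not name a factor. The GAGGAA and GGAAA motifs can overlap. In the SCIN window none of the 4 was found, which says only that these letters are not in these 250 bases. The CAPG window held CAGGTG, a form of the E-box, at 2 places, with first bases 243 and 62 bases before the start. Among 32851 such windows of mouse genes 55.6% held GGAAA, 6.75% TGANTCA, 39.5% CANGTG and 23.3% GAGGAA, so an E-box match is common. GC content was 49.2% in the SCIN window and 57.6% in the CAPG window, against a median of 52.4% over all windows. GSN has 3 such windows, of which the first held GGAAA at 2 places and GAGGAA at 2 places, the second held 1 E-box, and the third held GGAAA once. The windows of FLII and VIL1 held none of the 4 motifs.

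Gelsolin itself was bright but was not called detected. GSN, the founding member, which severs and caps filaments inside cells and clears actin from plasma in a secreted form, read 1052 ± 230 in M-CSF alone and 1602 ± 315 with RANKL. These signals were 5.32 and 8.15 times the floors, yet the deposited detection p-values were 0.226 and 0.396, so GSN was left out of the test. The detection p of GSN is not a multiple of 1 in 936. Among 4592 array genes at least as bright as GSN in M-CSF alone, 5 of the 3839 with such a stepped p had a detection p of 0.01 or more, against 321 of the 753 without. The ratio of the GSN means was 1.52-fold. The ranges of 1 SD, 822 to 1282 and 1287 to 1917, were separated by a narrow gap. When every array gene was tested regardless of detection, GSN had a log2 fold of 0.61 ± 0.16 SE and an adjusted p of 0.0107 in limma, in a fit that called 21.4% of 31492 array genes. GSN was not fitted with both SDs doubled or without moderation, so the dependence of this value on the error model was not tested. The table does not say which of the secreted and cytoplasmic transcripts the probe reads.

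CAPG rose. This macrophage-rich relative caps filament ends without severing them. It read 10589 ± 1003 in M-CSF alone and 16246 ± 407 with RANKL, and the ranges of 1 SD did not overlap. The rise was 1.53-fold (log2 0.62 ± 0.08 SE, 95% interval 0.44 to 0.80, adjusted p = 4.61e-05 in limma). It stayed past the threshold under each of the 7 alternatives run. A rise larger than that of CAPG was seen in 1485 of 11012 tested array genes, or 13.5%, and called changes in all had a median size of 0.59 (log2).

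FLII rose by less, and its call depended on the error model. Flightless I joins gelsolin-like repeats to leucine-rich repeats and is known to remodel actin and to act as a coactivator of nuclear receptors. It read 2093 ± 265 in M-CSF alone and 2723 ± 376 with RANKL. The ranges of 1 SD, 1828 to 2358 and 2347 to 3099, overlapped slightly. The rise was 1.30-fold (log2 0.38 ± 0.13 SE, 95% interval 0.10 to 0.66, adjusted p = 0.0222 in limma). The adjusted p was 0.311 in limma after both SDs were doubled, and 0.145 when genes were tested singly on linear means without moderation. A larger rise was seen in 22.0% of tested array genes.

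VIL1 and SVIL were not detected. Villin, encoded by VIL1, bundles and severs filaments in the microvilli of epithelia. VIL1 read 141 ± 6.16 in M-CSF alone and 137 ± 16.5 with RANKL, at 71.5% and 69.6% of the floors. Epithelial markers were near background as well, with 1 of 8 detected in either group (Cdh1, 188 and 190) and the lowest at 117 and 124. SVIL, which links filaments and myosin II to the membrane and regulates podosomes in human macrophages, read 168 ± 5.86 in M-CSF alone and 149 ± 2.51 with RANKL, at 85.1% and 75.6% of the floors. Its detection p-values, 0.340 and 0.485, are outside the steps, as those of GSN are. No fold is given for either gene, and a transcript below the detection of these probes cannot be told from none.

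Of the 5 relatives, 2 were tested and both passed as higher, in a comparison in which 57.8% of tested array genes were called, 28.9% as higher and 29% as lower. With 2 genes tested, that count says little beyond the values themselves. The contrast with SCIN is one of size. The ratio of SCIN was 60.4 times that of CAPG, or 5.92 more on the log2 scale. With background subtracted the gap was 152 times (7.25 on the log2 scale). SCIN was picked for its fold, so this gap is a description.

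**Figure D2:**
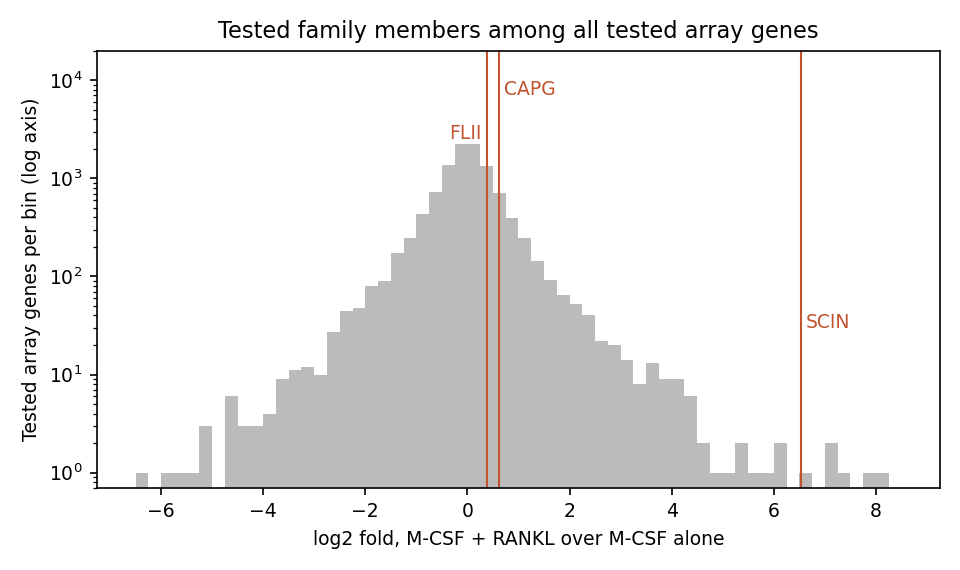
Number of tested array genes (log axis) by log2 fold of M-CSF with RANKL over M-CSF alone, in bins of 0.25. Lines mark the tested members, with FLII at 0.38 and CAPG at 0.62 inside the bulk of genes and SCIN at 6.53 in the far right tail.

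The members also differed in how tightly their replicates agreed. Relative to its mean, the SD of GSN was 21.9% in M-CSF alone and 19.7% with RANKL, wider than in 96.4% and 97.5% of tested array genes. That of CAPG was 9.47% and then 2.51%, and with RANKL 8.92% of tested array genes had a smaller one. FLII stood at 12.7% and 13.8%, and SCIN at 9.79% and 14.6%. The medians over tested array genes were 7.90% and 7.17%.

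The remaining genes of the family in the mouse were advillin and villin-like. AVIL, a relative of villin found in sensory neurons, read 135 ± 5.71 and 123 ± 9.63 and was not detected. VILL fell from 333 ± 5.64 to 247 ± 10.4 (log2 −0.43 ± 0.09 SE, adjusted p = 0.000924 in limma), and this call was lost when both SDs were doubled (adjusted p = 0.0811 in limma). Both signals of VILL lie close to background. A second array gene that maps to it, VILLP, read 163 ± 29.4 and 154 ± 8.40 and was not detected.

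By size of change, the genes most like SCIN were found by the smallest difference in log2 fold over the 2 culture groups, among 9270 array genes detected in both, taking those that map to 1 current symbol. Dcstamp, the fusion protein of osteoclast precursors, came nearest, 0.37 lower than SCIN on the log2 scale, with 224 ± 34.1 and 16037 ± 553. Next were the protease genes Ctsk and Mmp9, 1.27 and 1.62 above SCIN. They were followed by Cyp2s1, a cytochrome P450 enzyme (212 ± 24.5 to 4693 ± 416), and Bdh2, a dehydrogenase (1757 ± 100 to 38459 ± 490), 2.07 and 2.08 below. Of the 5, Dcstamp alone lay within a log2 unit of SCIN on the deposited scale. Genes not detected in M-CSF alone were left out, although some lay closer to SCIN (6.53) than Ctsk. Named after their values were seen, these included Oscar (log2 5.98), Mt3 (7.18), F2r (7.24) and Slc9b2 (7.30). With background subtracted Ctsk (log2 8.71) also did, beside 7.57 for Dcstamp and 7.88 for SCIN, and Cyp2s1 (6.00) came nearer than Mmp9 (9.95). A likeness over 2 group means rests on the fold alone.

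Genes that work beside the gelsolin family on actin were followed in 6 lists of 107 genes, of which 106 were on the array and 66 were tested. Of these, 17 rose, 29 fell and 20 did not pass, so 69.7% were called. Over all tested array genes 57.8% were called, 28.9% as higher and 29% as lower. The median log2 fold of the 66 was −0.11 and that of all tested array genes −0.00. With both SDs doubled 10 rose and 16 fell. In that setting 3054 of 11012 tested array genes were called in either direction, against 6369 without doubling, so calls were fewer throughout.

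Cofilin and its regulators are the other severing system of the cell. Of 15 tested genes 2 rose, 6 fell and 7 did not pass, so 53.3% were called, beside 57.8% of all tested array genes. The median log2 fold of the list was −0.10. Destrin (Dstn), a close relative of cofilin that depolymerises actin, rose from 4924 ± 541 to 10981 ± 328 (log2 1.16 ± 0.09 SE), although its detection p in M-CSF alone was 0.0206. Coro1b, named after its value was seen, was the other that rose, from 4458 to 5392 (adjusted p = 0.0495 in limma). That call was lost with no filter on detection (adjusted p = 0.0969 in limma), and 1 gene of the list rose with background subtracted or with both SDs doubled. Cofilin itself (Cfl1) read 3475 and 3202, a difference that did not pass (adjusted p = 0.309 in limma). Coronin 1A (Coro1a), which works with cofilin in leukocytes, fell from 17896 ± 528 to 5884 ± 685. The cofilin phosphatase slingshot 2 (Ssh2) fell at least 2.18-fold from 427 ± 78.0, and cyclase-associated protein 1 (Cap1) from 6876 ± 290 to 3988 ± 340. Ssh2 entered the test only through its signal in M-CSF alone (detection p 0.0118 with RANKL), so it had to differ to be tested. Dstn entered it only through its RANKL signal. With both SDs doubled 5 genes of the list were called, beside 3054 of all 11012 tested array genes.

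Other proteins that cap filament ends or regulate capping were followed next. Scinderin, gelsolin and CAPG cap the fast-growing end, whereas this list covers both ends. Of 9 tested genes 1 rose, 5 fell and 3 did not pass, beside 28.9% called higher and 29% lower among all tested array genes. The median of the list was −0.30. With both SDs doubled 1 of its genes rose and 3 fell, beside 3054 of all 11012 tested array genes called in either direction. Twinfilin 2 (Twf2) rose from 4011 ± 115 to 8373 ± 61.6 (log2 1.06 ± 0.08 SE). Twinfilin 1 (Twf1) fell from 464 ± 29.7 to 275 ± 4.83. Gamma-adducin (Add3) fell from 2328 ± 276 to 988 ± 200, and Eps8, a barbed-end capper, from 424 ± 8.38 to 213 ± 26.7. The other falls, named after their values were seen, were those of Mtpn, an inhibitor of capping protein, and Tmod3, which caps the slow-growing end. The subunits of capping protein, Capza1 (1562 and 1508) and Capzb (8455 and 7434), did not pass.

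Actin itself and the proteins that hold its monomers gave 5 tested genes, of which 3 fell and 2 missed the threshold. Over all tested array genes 29% were called lower. The median of the list was −0.24. In limma 0 of the 5 rose, with 1 higher at an unadjusted p under 0.05 and 0 by the unmoderated test. Beta-actin (Actb) fell slightly, from 27143 ± 1326 to 23001 ± 1077 (log2 −0.24 ± 0.07 SE). Thymosin beta 10 (Tmsb10), which binds actin monomers, fell from 17913 ± 871 to 10192 ± 1042. Smooth muscle actin (Acta2) fell from 1255 ± 91.1 to 417 ± 76.6 on the brighter of its 2 array genes, and from 209 to 173 on the other.

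Crosslinkers and tropomyosins, which bundle filaments or shield them from cofilin, formed the next list. Of 15 tested genes 8 rose, 3 fell and 4 did not pass. The median was 0.26, and over all tested array genes 28.9% were called higher. With background subtracted 6 of 14 rose, and with both SDs doubled 5 of 15 did. The doubled SDs left 3054 of all 11012 tested array genes called in either direction. Pls1 and Cttn, named after their values were seen, entered the test through their RANKL signal alone, at 215 and 194. Tropomyosin 1 (Tpm1) rose from 2230 ± 26.5 to 8536 ± 388 (log2 1.94 ± 0.08 SE). Plastin 3 (Pls3), a bundling protein, rose from 662 ± 214 to 1499 ± 343. Filamin A (Flna) fell from 4974 ± 400 to 2410 ± 585. Marcks, which binds filaments and phosphoinositides at the membrane, fell from 6644 ± 600 to 1109 ± 65.8 (log2 −2.58 ± 0.10 SE). The third fall, named after its value was seen, was that of Tpm3 from 6955 to 4502, with a detection p of 0.0350 with RANKL.

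**Figure D3:**
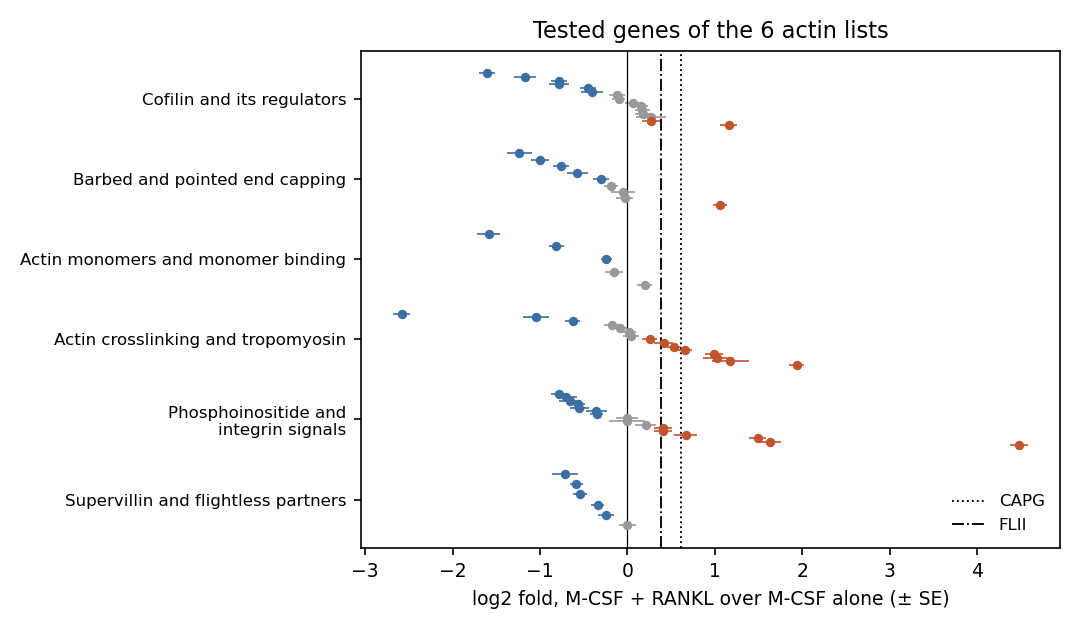
log2 fold of M-CSF with RANKL over M-CSF alone, with SE bars, for the tested genes of the 6 actin lists. Orange points rose, blue points fell and grey points did not pass at an adjusted p of 0.05 in limma. The dotted and dash-dotted lines show CAPG at 0.62 and FLII at 0.38. Falls outnumber rises, 29 to 17, beside 29% of all tested array genes called lower and 28.9% higher. The point at the far right is Pip5k1a.

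Phosphoinositides release gelsolin-type caps from filament ends, and in osteoclasts of birds the αv integrin is found with gelsolin. In the list of these signals 6 of 16 tested genes rose, 7 fell and 3 did not pass. Over all tested array genes 28.9% were called higher and 29% lower. Pip5k1a and Itgb3 entered the test through their RANKL signal alone. The list median was −0.01. The array gene PIP5K1A, named for a kinase that makes the phosphoinositide PIP2, was not detected in M-CSF alone (153 ± 9.10) and read 3414 ± 305 with RANKL, a rise of at least 17.3-fold. Older mouse nomenclature used alpha and beta for these kinases the other way round, and the table does not give the probe's sequence. The array gene PIP5K1B rose from 1188 to 1579 (adjusted p = 0.00498 in limma). Itgav, the αv integrin chain, rose from 532 ± 65.9 to 1654 ± 199 (log2 1.64 ± 0.12 SE). The GTPase Rac2 rose from 2923 ± 75.6 to 8220 ± 892, and Plcg2, a phospholipase that cleaves PIP2, fell from 10508 ± 824 to 6101 ± 298. With both SDs doubled 5 genes of this list were called, beside 3054 of all 11012 tested array genes. Src, a kinase of osteoclast podosomes, read 161 and 902 but had detection p-values of 0.0294 and 0.0185 and was not tested.

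Among partners of SVIL and FLII the calls were falls. Of 6 tested genes 5 fell and 1 did not pass, beside 29% of all tested array genes called lower. The median of the list was −0.44. In limma 0 rose, with 0 higher at an unadjusted p under 0.05 and 0 by the unmoderated test. The myosin II heavy chain Myh9 fell from 5921 ± 648 to 3611 ± 807, and its light chains Myl12b and Myl6 from 11487 ± 267 to 7661 ± 52.0 and from 30026 ± 2630 to 23755 ± 760. Lrrfip1, which binds the leucine-rich repeats of FLII, fell from 334 ± 0.759 to 229 ± 6.25, near background. The relative Lrrfip2 read 670 and 669 and did not pass. The fifth fall, named after its value was seen, was that of the adaptor Myd88 from 5859 to 4949 (adjusted p = 0.0394 in limma). That call was lost with no filter on detection (adjusted p = 0.0902 in limma). With both SDs doubled 2 genes of the list were called, beside 3054 of all 11012 tested array genes.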

How the data were processed

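Per the file headers, the authors deposited 1 normalized linear intensity per array gene and group, with its SD between arrays and a detection p-value. Per the labels, each group is the mean of 3 biological replicates. For the normalization method and array version, the labels and headers used here give nothing. A deposited ratio of the means is headed M-CSF over RANKL but equals RANKL over M-CSF in all 31492 array genes, within a relative tolerance of 1e-06, and was not used.

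The members and gene lists were chosen with earlier results of these data known. Effects are log2 ratios of the deposited means. Variances came from the SDs by the delta method, were pooled over the groups (4 degrees of freedom) and moderated across the 11012 tested genes by squeezeVar of limma 3.58.1 (intensity trend, whose prior had 7.49 degrees of freedom), run in R 4.3.3. Two-sided p-values were adjusted by Benjamini-Hochberg over the 11012, and a call needed an adjusted p under 0.05. The procedure was tested on simulated data. Of 31492 array names, 13430 matched a current RefSeq symbol and 8112 a single synonym. The brightest array gene stood for a symbol. Named were all members, both other family genes, up to 4 called genes with the largest change per actin list, the 5 genes nearest SCIN in fold, and fixed markers. Cfl1, Capza1, Capzb, PIP5K1B, Src, Lrrfip2 and the second array genes were added after their values were seen. Promoter windows are from RefSeq (GRCm38.p6). 5 of the 6 members were looked up there, and SVIL was not used. Array coordinates are not printed, since the array's build is not named.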

Additional observations from a re-analysis of the deposited data

How the results depend on the processing

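CAPG and FLII stayed higher under every alternative run, and CAPG stayed past the threshold under all 7. FLII (log2 0.38) no longer passed with both SDs doubled (adjusted p = 0.311 in limma) or without moderation (adjusted p = 0.145 in a Welch test from the deposited means and SDs), and its adjusted p in limma was 0.0215 to 0.0391 under the other 5. The log2 fold of SCIN was 7.88 after subtraction of background, against 6.53. The count of called array genes was 3868 without moderation and 3054 with both SDs doubled, against 6369. With both SDs doubled 5 cofilin, 5 phosphoinositide and integrin, 2 supervillin and flightless, and 26 genes of all 6 lists were called, against 8, 13, 5 and 46. With no filter on detection the list medians moved from −0.30 to −0.09 for capping and from −0.24 to −0.10 for monomers. They moved from 0.26 to 0.08 for crosslinkers and from −0.44 to −0.29 for supervillin and flightless partners. The median of the phosphoinositide and integrin list turned from −0.006 to 0.020, and that of the cofilin list stayed at −0.10. No paired analysis was possible because each group is deposited as 1 mean with its SD, and for the same reason no replicate could be left out. No second array gene maps to a member, so that alternative gave no value. Signal near background limits SCIN in M-CSF alone, VIL1, SVIL and VILL.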
